A study of Mus musculus with 20 samples.

Results

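Hippocampal libraries of 1 experiment fell into those with high and those with low transcript levels of transthyretin (Ttr), the thyroid hormone and retinol carrier that choroid plexus epithelium makes in bulk. A library was placed in the choroid-rich class where Ttr exceeded 1000 CPM, the usual depth-scaled count taken relative to the library's total, and in the choroid-poor class otherwise. The members were thus chosen by the measured Ttr level: 4 of the 12 hippocampal libraries were rich and 8 were poor, out of 20 samples in the whole series. The libraries came from wild-type C57/BL6 mice aged 2 to 6 months, whose hippocampus was taken 24 hours after 0.2 mg/kg nicotine or 0.9% saline, with 6 biological replicates per treatment. The rich class held nicotine 4, nicotine 5, saline 2 and saline 5, so that each treatment gave 2 rich and 4 poor libraries. All 12 libraries shared genotype, tissue, time and batch, and no mouse carried an added transgene according to the labels. The labels do not state the route of nicotine, the sex of these animals, or whether each library is 1 animal.

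The choroid plexus is a fold of secretory epithelium in each brain ventricle that lies on a stroma of fibroblasts, macrophages and leaky, fenestrated capillaries. Its epithelial cells make cerebrospinal fluid by moving sodium, chloride, bicarbonate and water from blood to ventricle. They also secrete carrier proteins and growth factors, seal the blood-cerebrospinal fluid barrier with tight junctions, and bear cilia. The plexus of the lateral ventricle attaches along the fimbria beside the hippocampus.

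Since Ttr chose the classes, its values are given as a description. Ttr stood at 1095 CPM in nicotine 4, 1304 in saline 2, 2197 in nicotine 5 and 3807 in saline 5. Among the poor libraries it ran from 15.2 in saline 1 through 31.5, 35.5, 36.1, 58.6, 64.0 and 64.9 to 221 in saline 6. The library just inside the threshold was thus nicotine 4 at 1095 CPM, and the one just outside was saline 6 at 221 CPM. The prefrontal cortex libraries of the series, another batch with a table of its own, came from wild-type male mice given 5 mg/kg of the bacterial product lipopolysaccharide (LPS) or saline 24 hours before (4 libraries each). Titles and column names disagree on the treatment of 4 of these 8, so they are used here only as a range over all 8, in which Ttr lay between 0.201 and 1.44 CPM. The mean of log2 Ttr differed by -0.268 between treatments (nicotine minus saline), given as a description.

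Total counts were 51969343 to 68196280 in the rich and 53145736 to 63385531 in the poor libraries, so the depths of the classes overlapped. Ttr took 0.113% to 0.363% of the counts of a rich library. Defining markers were then read beside the labels. They were chosen with earlier results of these data known, so they describe the classes and are no independent check. All 13 other choroid plexus epithelium markers (Enpp2, Kl, Folr1, Aqp1, Clic6, Kcnj13, Kcne2, Otx2, Prlr, Sostdc1, Slc4a5, Tmem72 and Cldn2) were higher in the rich class. Their summed level was 909 to 2103 CPM in rich and 134 to 385 CPM in poor libraries, and 12 of the 13 had ranges that did not overlap. Markers of dentate granule cells (Prox1, Dsp and C1ql2) summed to 115 to 229 CPM in rich and 154 to 295 CPM in poor libraries, so hippocampal tissue was present in both. Of the rich libraries, 2 stood apart in genes of other kinds: nicotine 4 held the most Zic1, Prdm12 and Drd2, and saline 2 held the most Tnnt1, Tcf7l2 and Cd74. Counts are therefore also given without both of these libraries.

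Beyond Ttr, 19459 genes were tested with edgeR's quasi-likelihood F-test, with treatment as a covariate and p adjusted by the Benjamini-Hochberg method. Because the classes were set from a transcript in the same libraries, the calls below describe which genes travelled with Ttr and do not test the classes. At an adjusted p under 0.05, 392 genes were called higher (2.01% of those tested) and 5 lower (0.0257%). Among those called higher, 214 differed by more than 2-fold, 95 by more than 4-fold and 16 by more than 16-fold, and the median log2 difference was 1.12, against -0.01 over all genes tested. No gene called lower differed by more than 2-fold. In a tissue mixture, more cells of a type and more RNA per cell cannot be told apart. The 4 rich and 8 poor values did not overlap for 399 genes that were higher (2.05%) and for 90 that were lower (0.463%). Of the genes called higher, 298 did not overlap. Without saline 2 and nicotine 4, 302 genes were called higher and 1 lower, and 252 of the 392 were among them.

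**Figure D1:**
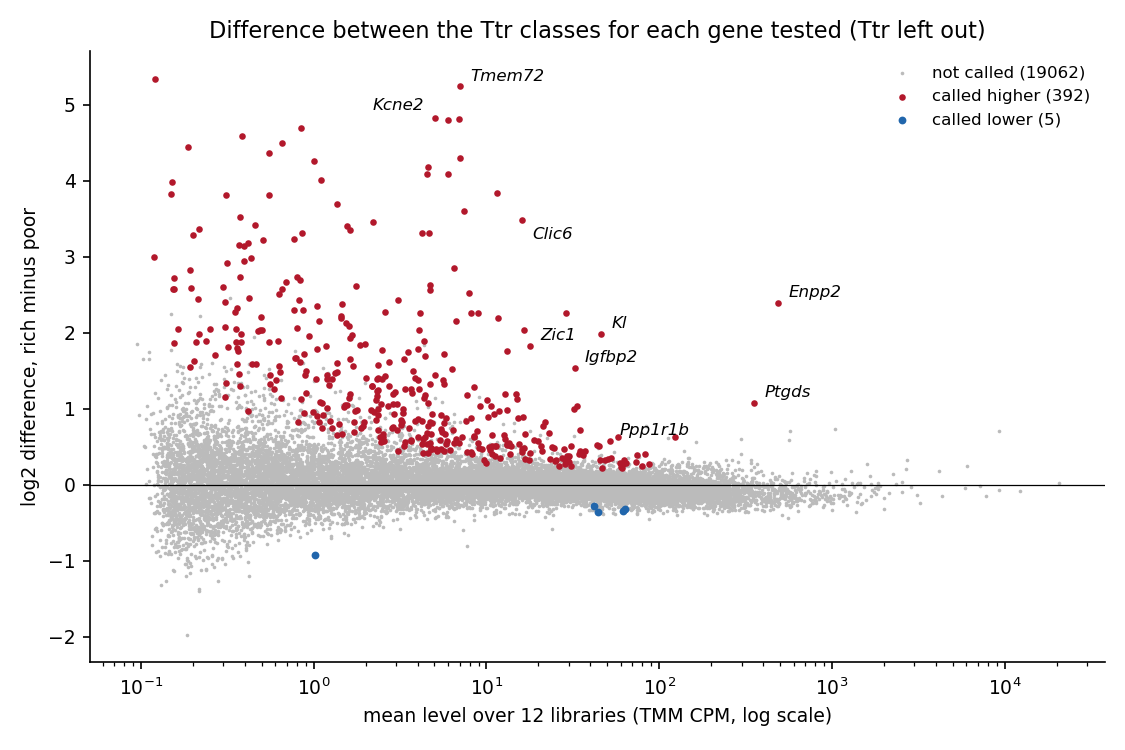
Each point is 1 of 19459 genes, with its mean level over the 12 libraries (TMM-scaled CPM, log axis) and its log2 difference, rich minus poor. The 392 genes called higher (red) reach a log2 difference above 5, while the 5 called lower (blue) lie close to the genes not called (grey).

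Summed without Ttr, the genes called higher made up 0.552% of the counts of nicotine 4, 0.629% of saline 2, 0.657% of nicotine 5 and 0.791% of saline 5. In the poor libraries they averaged 0.345%. The added share was thus 0.207 percentage points in nicotine 4 and 0.446 in saline 5. Per kilobase of exon, which allows levels of different genes to be compared, the largest difference in mean level between the classes among genes called higher, Ttr aside, was that of Ptgds, at 173 CPM per kilobase. Enpp2 followed at 149, then Igfbp2 at 20.5, 1500015O10Rik (Ecrg4) at 19.5 and Pcp4l1 at 17.0.

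In what follows, CPM values of a gene are scaled by TMM factors, and the 4 rich libraries are always given in the order of their Ttr: nicotine 4, saline 2, nicotine 5 and saline 5. For the 8 poor libraries the lowest, median and highest values are given. Differences are log2 rich minus poor with the standard error (SE) of the fit. Gene lists were read against all genes tested, of which 48.1% had a log2 difference above 0 and 2.01% were called higher. The lists were made with earlier results of these data known, so their counts are descriptions. Some genes stand in more than 1 list.

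Ion, water and solute transport genes of the epithelium held many of the largest differences. Of 43 measured genes, 23 were higher, against 2.01% over all genes tested. None was lower, and 33 lay above 0, with a median log2 difference of 0.48. Kcne2, an accessory subunit of potassium channels (chromosome 16, 92292389 to 92298129, mm10), stood at 8.88, 10.7, 13.5 and 23.2 CPM in the rich and at 0.103, 0.344 and 1.58 CPM in the poor libraries. All 4 rich values lay above every poor one, a log2 difference of 4.82 (SE 0.43). Slc4a5, a sodium bicarbonate cotransporter (chromosome 6, 83219828 to 83304945), stood at 7.24, 9.64, 20.1 and 30.3 against 0.243, 0.42 and 1.91 CPM, a log2 difference of 4.79 (SE 0.42). Aqp1, the water channel (chromosome 6, 55336432 to 55348555), had 6.35, 6.87, 12.7 and 23.6 against 0.357, 0.552 and 1.68 CPM (4.18, SE 0.35). The 3 genes follow Ttr step by step through the rich libraries. Kcnj13, the inward rectifier potassium channel Kir7.1, measured 9.62, 8.84, 21.9 and 36.0 against 0.241, 0.681 and 2.74 CPM (4.30, SE 0.49). Slc16a8, a lactate transporter, reached only 1.32, 0.966, 2.88 and 4.23 CPM but was at 0 to 0.313 CPM in the poor class (4.69, SE 0.53). Folr1, the folate receptor that carries folate into cerebrospinal fluid, gave 7.36, 10.8, 16.7 and 29.2 against 0.355, 0.785 and 2.30 CPM (4.08, SE 0.37). These carriers were scarce in every poor library, and none of their ranges overlapped.

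The carriers described next are also expressed by other hippocampal cells. Slc12a2, the sodium-potassium-chloride cotransporter NKCC1, stood at 90.2, 99.8, 102 and 102 CPM in the rich and at 51.5, 75.9 and 85.9 CPM in the poor libraries, a 1.33-fold difference (log2 0.41, SE 0.10). Slc4a2, an anion exchanger, was higher by 1.04 (SE 0.13), and the copper importer Slc31a1 by 0.83 (SE 0.11). The sodium pump subunit Atp1b1, which neurons use heavily, was not called, at a log2 difference of -0.12 (SE 0.08). Slc4a10 (-0.04, SE 0.10) and the carbonic anhydrases Car2 (0.28, SE 0.11) and Car12 (0.48, SE 0.16) were not called either. Car12 nevertheless stood at 59.2 and 78.3 CPM in nicotine 5 and saline 5, above the highest poor library at 48.3, and at 38.4 and 41.5 CPM in nicotine 4 and saline 2, within the poor range. It was called higher without those latter libraries. Since Atp1b1 and similar genes dominate it, the summed level of the transport list overlapped between classes (3249 to 4406 against 3579 to 3901 CPM).

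**Figure D2:**
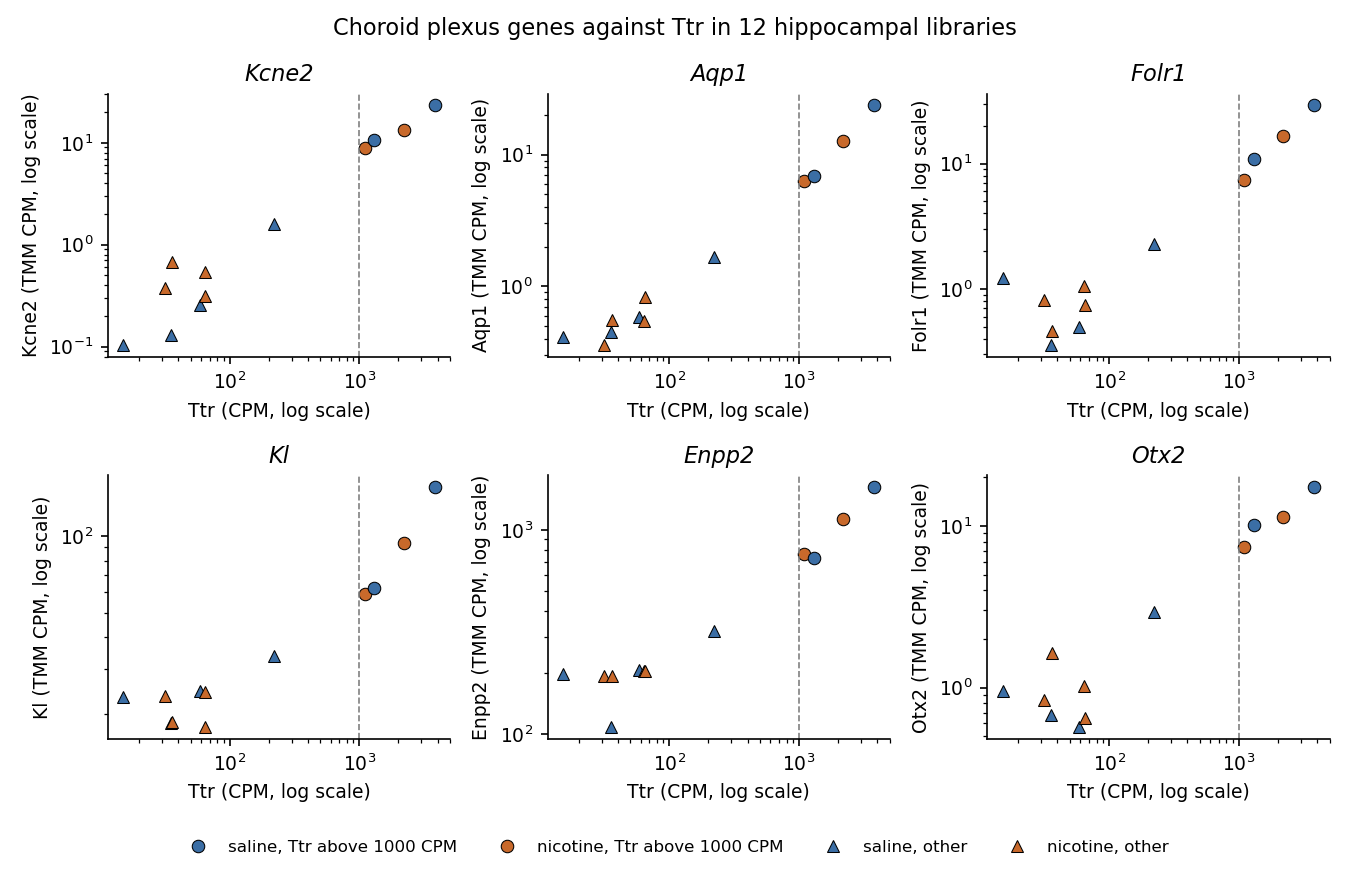
TMM-scaled CPM of 6 choroid plexus genes (vertical, log axis) against Ttr CPM (horizontal, log axis) in the 12 hippocampal libraries, with the dashed line at the threshold of 1000 CPM. The 4 rich libraries (circles) lie above the 8 poor ones (triangles) for every gene shown, and saline 6, at 221 CPM of Ttr, is the highest poor library in each panel.

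Secreted proteins, enzymes and receptors of the epithelium held the largest number of calls of any list, which describes lists made with earlier results known. Of 48 measured genes, 37 were higher, against 2.01% over all genes tested. None was lower and 47 lay above 0, with a median of 1.52. Of this list Mia and Pon1 fell under the low-count filter, and Igf2 is taken up further on. Enpp2 (autotaxin, which makes lysophosphatidic acid; chromosome 15, 54838901 to 54952892) stood at 762, 733, 1139 and 1624 CPM in the rich libraries. Its poor libraries gave 108, 199 and 318 CPM, a 5.24-fold difference (log2 2.39, SE 0.22), and oligodendrocytes also make it. Prefrontal libraries held 156 to 201 CPM of Enpp2 with almost no Ttr. Kl (klotho, a co-receptor for fibroblast growth factor 23; chromosome 5, 150952607 to 150993817) stood at 58.9, 62.7, 93.3 and 155 against 17.9, 23.5 and 33.8 CPM (1.99, SE 0.20). Tmem72, a membrane protein, showed the largest log2 difference among genes with at least 1 CPM in the rich class, 5.25 (SE 0.46), at 8.07, 10.2, 24.0 and 38.1 against 0.138, 0.359 and 1.56 CPM. This came to a 38.1-fold difference. Exons of Enpp2 overlap those of the antisense Gm26684, and the strand setting of the counting is not given in the sources used here, so reads of such pairs cannot be told apart.

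Growth factor and hormone genes were among the members. Igfbp2, an insulin-like growth factor binding protein, stood at 35.9, 48.7, 62.4 and 83.4 against 15.2, 20.3 and 23.1 CPM (1.54, SE 0.15). Sostdc1, a secreted antagonist of BMP and Wnt signalling, gave 12.0, 13.6, 16.3 and 28.8 against 2.39, 2.78 and 4.31 CPM (2.53, SE 0.19). The rich values of both rise in the order of Ttr and none overlaps the poor range. Coagulation factor V (F5) was at 18.3, 17.0, 33.2 and 53.3 against 1.17, 1.73 and 5.69 CPM (3.84, SE 0.36). Ace, the angiotensin-converting enzyme, was at 36.4, 35.2, 69.6 and 105 against 10.4, 11.6 and 17.7 CPM (2.26, SE 0.24). Htr2c, a serotonin receptor that hippocampal neurons also express, differed by only 0.52 (SE 0.10). Prlr, the prolactin receptor, was the marker whose ranges overlapped: 1.35, 0.501, 2.85 and 4.15 against 0.285, 0.497 and 0.736 CPM (2.16, SE 0.40). Saline 2 lay within the poor range for this receptor, although its Ttr was above that of nicotine 4.

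Tight junction and polarity genes were split. Of 23 measured genes, 10 were higher, against 2.01% over all genes tested, and none lower. Above 0 lay 18, with a median of 0.55. Krt18, Krt8 and Crb3 also stand in the secreted list. Cldn2, the cation-permeable claudin of leaky epithelia (chromosome X, 139800828 to 139811386), stood at 5.88, 5.29, 14.9 and 22.6 against 0.423, 0.645 and 1.55 CPM (4.09, SE 0.36). Krt18, an epithelial keratin, gave 2.63, 3.08, 3.67 and 6.44 against 0.297, 0.647 and 1.09 CPM (2.61, SE 0.30), and its partner Krt8 differed by 2.35 (SE 0.39). The junction proteins Marveld3 (2.08, SE 0.31), Cldn3 (1.88, SE 0.32), Cldn1 (1.79, SE 0.41), Tjp3 (1.15, SE 0.23) and F11r (0.63, SE 0.10) and the polarity genes Crb3 (1.21, SE 0.24) and Patj (0.55, SE 0.13) made up the rest. Ocln (0.25, SE 0.09) and Tjp1 (-0.10, SE 0.07), which brain endothelium also expresses, were not called.

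Transcription factors of the choroid plexus and the dorsal midline came to 26 measured genes, of which 6 were higher, none lower and 21 above 0 (median 0.44). Over all genes tested, 2.01% were called higher. Otx2, a homeobox factor required for choroid plexus formation (chromosome 14, 48657677 to 48673819), stood at 7.38, 10.2, 11.3 and 17.3 against 0.57, 0.893 and 2.93 CPM (3.32, SE 0.33). Its values rise with Ttr and do not overlap. The locus also carries the antisense transcript Otx2os1, which was higher by 4.00 (SE 0.38) and overlaps it in part. Lmx1a, a roof plate factor, gave 1.16, 1.39, 1.16 and 2.66 against 0.0746, 0.26 and 0.423 CPM (2.66, SE 0.32), and Msx1, a homeobox factor of dorsal midline tissue, gave 6.55, 11.8, 10.7 and 15.7 against 3.15, 4.01 and 4.38 CPM (1.52, SE 0.16). Gmnc, a regulator of multiciliated cell formation, was at 3.36, 8.11, 7.10 and 9.71 against 2.31, 3.15 and 3.55 CPM (1.19, SE 0.16). Nicotine 4 thus sat within the poor range of Gmnc. The zinc finger factors Zic1 and Zic4 were highest in nicotine 4 and are described with the genes of single libraries.

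The homeodomain of OTX proteins reads the core TAATCC, so upstream sequences of the genes called higher were searched for it on both strands, in the 250 bases before each RefSeq start (build GRCm38.p6). Of the 392 genes, 286 matched the RefSeq table, with 365 start windows. The core was in 25 of these windows (6.85%) and in 2054 of 32851 windows of all genes (6.25%), so the share among genes called higher was close to that of all genes. The 2 windows below, of genes that follow Ttr closely, are shown as examples that hold it, in capitals (GGATTA, its reverse complement); a match describes the letters only. The last 50 bases of these 2 windows are left out because annotated exons reach into them. Mfrp, a frizzled-related membrane protein, lies on the plus strand (chr9:44101520-44101719), and Abca4, a retinoid transporter, on the plus strand (chr3:122044210-122044409).
Mfrp: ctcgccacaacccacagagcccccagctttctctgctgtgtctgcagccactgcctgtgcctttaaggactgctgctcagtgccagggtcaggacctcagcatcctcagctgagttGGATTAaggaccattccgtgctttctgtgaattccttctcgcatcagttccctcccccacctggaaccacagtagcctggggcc
Abca4: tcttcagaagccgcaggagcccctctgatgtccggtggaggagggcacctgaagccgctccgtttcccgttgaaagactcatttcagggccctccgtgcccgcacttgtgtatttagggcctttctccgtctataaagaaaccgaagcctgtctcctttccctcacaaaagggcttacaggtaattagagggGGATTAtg
In Mfrp the core lies 134 bases and in Abca4 58 bases upstream of the start. Mfrp levels were 8.37, 10.1, 22.6 and 36.3 against 0.172, 0.393 and 2.60 CPM (4.81, SE 0.51). Exons of Mfrp share 1589 bases with C1qtnf5 on the same strand, so its reads may be split between them. Abca4 levels were 9.02, 9.54, 15.4 and 27.0 against 1.36, 1.93 and 3.20 CPM (2.86, SE 0.25).

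Most motile cilia genes lay above 0, and a larger share was called than the 2.01% called higher over all genes tested. Of 61 measured genes, 12 were higher, none was lower and 59 lay above 0, with a median of 0.66. Drc7, a subunit of the dynein regulatory complex (chromosome 8), stood at 10.7, 13.5, 16.3 and 28.3 against 2.20, 3.32 and 5.33 CPM (2.26, SE 0.25), and its values followed the order of Ttr. Pifo, which takes part in cilium disassembly, gave 1.52, 1.65, 1.42 and 1.93 against 0.281, 0.482 and 0.732 CPM (1.72, SE 0.24). Mlf1 (1.48, SE 0.22) and the axonemal protein Cfap206 (1.24, SE 0.21) followed. Foxj1, the master regulator of motile cilia, was not called: it stood at 18.1, 18.9, 15.7 and 16.3 against 4.70, 9.43 and 17.5 CPM (0.79, SE 0.24). Here the 8 poor libraries spread widely, with nicotine 2 at 17.5 CPM and saline 4 at 4.70 CPM. The other ependymal markers Rsph1, Ccdc153 and Tmem212 also overlapped between classes. The number of cilia genes called depended on single libraries: it was 26 without nicotine 2, 7 without saline 2, and 8 without nicotine 5 or without saline 2 and nicotine 4 together. Ependymal genes outside the cilium gave 1 higher of 14, Vim (0.45, SE 0.10), and a median of 0.29 (0.06 without saline 2 and nicotine 4). That count was 0 without saline 2, saline 3 or nicotine 5, 3 without saline 1 or nicotine 6, 4 without nicotine 4 and 5 without saline 5 or nicotine 2.

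Promoters of ciliary genes often carry X-box sites read by RFX factors, and a half-site of this box, GTTGCCA, was searched on both strands in the same windows. It was in 9 of 57 windows of the cilia list (15.8%), in 4 of the 15 windows of its members called higher, in 17 of 365 windows of all genes called higher (4.66%) and in 1202 of 32851 of all genes (3.66%). Windows of 2 called cilia genes are shown because they hold it, in capitals. Mlf1 lies on the plus strand (chr3:67373847-67374096), where GTTGCCA stands 105 bases before the start and an OTX core, GGATTA, also in capitals, 248 bases before it. Pifo lies on the minus strand (chr3:106001498-106001747), where the reverse complement TGGCAAC stands 13 bases before the start.
Mlf1: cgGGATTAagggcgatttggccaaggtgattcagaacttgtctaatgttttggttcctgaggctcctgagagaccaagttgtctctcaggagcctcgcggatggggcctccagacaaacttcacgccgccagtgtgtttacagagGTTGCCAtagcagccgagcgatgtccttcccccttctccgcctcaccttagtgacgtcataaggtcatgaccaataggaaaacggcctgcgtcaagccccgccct
Pifo: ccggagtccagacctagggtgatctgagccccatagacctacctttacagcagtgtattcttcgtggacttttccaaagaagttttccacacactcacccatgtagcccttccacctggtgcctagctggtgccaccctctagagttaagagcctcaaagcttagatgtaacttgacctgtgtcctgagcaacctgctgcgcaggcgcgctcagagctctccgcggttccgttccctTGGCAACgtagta
No window was read as a binding site.

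Most fibroblast genes lay above 0, and the share called was again above the 2.01% called higher over all genes tested. Of 46 measured, 9 were higher, none lower and 39 above 0, with a median of 0.60. Ptgds, the lipocalin-type prostaglandin D synthase of leptomeninges and choroid plexus (chromosome 2), stood at 405, 683, 598 and 490 against 164, 241 and 460 CPM (1.07, SE 0.22). Nicotine 6, a poor library, held that 460 CPM, above nicotine 4. Col1a2 (1.11, SE 0.27) was called, while Col1a1 (0.60, SE 0.26) and Col3a1 (0.89, SE 0.34) were not, and all 3 were highest among rich libraries in saline 2. Col18a1, the basement membrane collagen, differed: 4.29, 4.38, 6.04 and 8.13 against 2.34, 3.08 and 4.02 CPM (0.86, SE 0.18), in the order of Ttr and without overlap. Only 1 fibroblast gene was called without saline 2 and nicotine 4, and the number moved with single libraries: 22 without nicotine 6, 1 without nicotine 5, 2 without saline 2, 3 without saline 1 or saline 6, and 4 without saline 3 or nicotine 3.

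Macrophage genes of the brain's borders lay above 0 in 20 of 20 measured cases (median 0.80). Of these genes 6 were called higher, against 2.01% over all genes tested. Cd74, the class II invariant chain, stood at 2.36, 9.34, 4.55 and 3.90 against 0.953, 1.60 and 2.75 CPM (1.62, SE 0.31), and H2-Eb1, a class II molecule, at 0.844, 3.01, 2.12 and 2.29 against 0.497, 0.78 and 1.14 CPM (1.40, SE 0.26). For both, nicotine 4 lay within the poor range. Folr2 (2.03, SE 0.38), Dab2 (0.97, SE 0.19; also expressed by choroid epithelium), H2-Aa (1.82, SE 0.41) and H2-Ab1 (1.39, SE 0.32) were the others. The defining border markers Mrc1 (0.76, SE 0.25), Cd163 (0.62, SE 0.23) and Lyve1 (0.39, SE 0.31) were not called. No range of the 20 genes was free of overlap. The 6 calls became 3 without saline 2 or nicotine 5, and 7 without nicotine 2 or nicotine 6. Without saline 2 and nicotine 4 together the same 6 genes were called, with a list median of 0.63. Microglia gave 0 calls among 18 genes (4 without saline 5), with a median of 0.18, which turned to -0.13 without saline 2 and nicotine 4.

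Vessel lists held 0 or 1 call each. At the 2.01% called higher over all genes tested, lists this short would hold few or no calls. The list of fenestrated endothelium had 0 of 13 genes called and a median of -0.08. Without saline 5 it held 1 lower call, where 223 of 19719 genes were called lower. Plvap, which forms the diaphragms of fenestrae, stood at 9.45, 9.71, 10.8 and 10.7 against 8.84, 10.6 and 12.6 CPM (-0.06, SE 0.09). Barrier endothelium had 0 of 15 called (median 0.09), and mural cells had 1 of 14, Tagln (0.95, SE 0.20). Barrier endothelium had 2 calls without saline 2 and 1 without saline 1, without nicotine 2, or without saline 2 and nicotine 4. Mural cells had 3 without nicotine 4, 2 without nicotine 6 or without saline 2 and nicotine 4, and 0 without saline 2 or without nicotine 5. Blood cell genes gave 0 of 11, with a median of 0.20 that turned to -0.39 without saline 2 and nicotine 4.

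**Figure D3:**
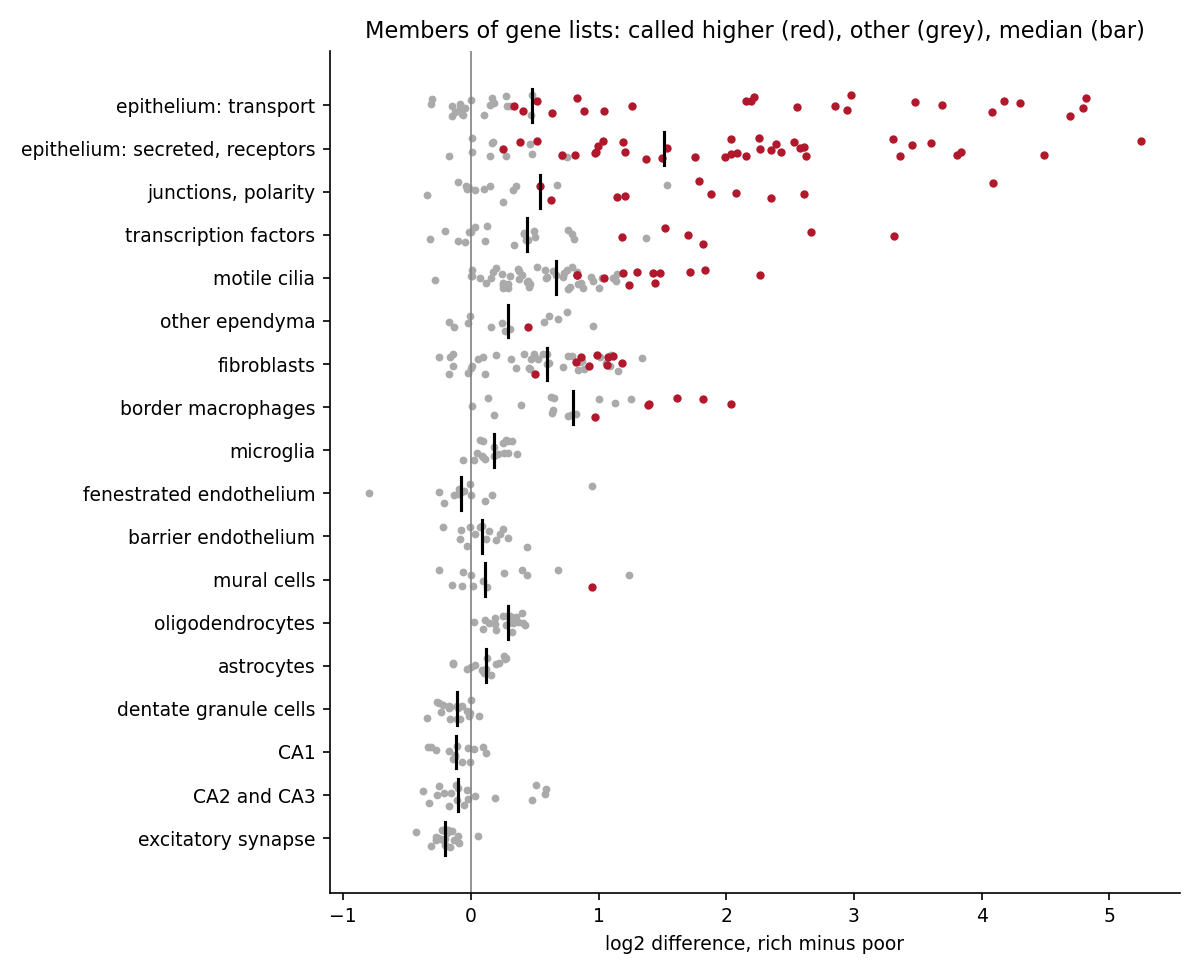
Log2 differences (rich minus poor) of the measured members of 18 gene lists, 1 point per gene, with genes called higher in red and the list median as a bar. The transport, secretion and junction lists extend beyond 4, cilia, fibroblast and macrophage lists have medians between 0.60 and 0.80, and the 4 neuronal lists shown have medians between -0.20 and -0.10.

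The neuronal and glial lists below held 0 calls, and lists this short would hold few at the 2.01% called higher over all genes. Dentate granule cells (0 of 19), CA1 (0 of 14), CA2 and CA3 (0 of 19), interneurons (0 of 17) and the excitatory synapse (0 of 20) had medians of -0.11, -0.12, -0.10, -0.08 and -0.20. Without saline 2 and nicotine 4 these became 0.04, -0.12, -0.16, -0.10 and -0.11, so that of the dentate list changed sign. The CA2 and CA3 list held 1 higher call without nicotine 2 or without saline 2, and 1 lower call without nicotine 1. The dentate list held 1 lower call without nicotine 5, and the CA1 list 1 without nicotine 4. Without saline 5, lower calls numbered 1 for CA1, 1 for interneurons and 2 for the excitatory synapse. In that fit 223 of 19719 genes were called lower. Of the synaptic genes 1 of 20 lay above 0. Grin1, the obligatory NMDA receptor subunit, stood at 573, 350, 567 and 553 against 535, 613 and 667 CPM (-0.28, SE 0.10), lowest in saline 2. Prox1, the dentate granule cell factor, was at 59.9, 88.1, 105 and 96.0 against 69.9, 111 and 127 CPM (-0.25, SE 0.14). Oligodendrocyte genes lay above 0 in 20 of 20 cases with a median of 0.29 (0.01 without saline 2 and nicotine 4), and 0 were called. Mbp, a myelin protein, was at 3185, 4363, 2787 and 2184 against 1269, 2589 and 2936 CPM (0.33, SE 0.19). Astrocytes (0 of 16) and oligodendrocyte precursors (0 of 11) had medians of 0.12 and -0.003, which became -0.07 and -0.13 without saline 2 and nicotine 4. Immediate early genes, which mark recent activity, had 0 of 18 called and a median of 0.02 (0.35 without both libraries).

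Thyroid hormone and retinoid genes were set beside their carrier. Of 30 measured, 4 were higher, against 2.01% over all genes tested. None was lower, and the median was 0.10. Slco1a5, an organic anion and thyroid hormone transporter, stood at 0.439, 0.798, 1.24 and 1.68 against 0.0469, 0.113 and 0.196 CPM (2.98, SE 0.36). Slco1c1, the thyroxine transporter that brain endothelium and astrocytes also use, was at 57.2, 51.5, 58.2 and 67.0 against 41.5, 45.2 and 53.9 CPM (0.33, SE 0.07). Rdh5, a retinol dehydrogenase, lay above every poor library in all 4 rich ones, the lowest at 3.83 CPM in nicotine 4 against a highest poor value of 2.93 CPM (2.04, SE 0.27). Nuclear respiratory chain genes gave 1 call of 23, Cox8b (2.58, SE 0.41), with 22 above 0 and a median of 0.13 (-0.02 without saline 2 and nicotine 4).

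Genes outside every list made up 288 of the 392 calls. The members named here were picked after their values were seen. Prr32 (3.40, SE 0.50), the RNA-binding protein gene Rbm47 (2.27, SE 0.32), the ferritin receptor Scara5 (2.30, SE 0.29) and the endocytic adaptor Epn3 (1.66, SE 0.21) had no overlap. Lepr, the leptin receptor, stood at 2.92, 4.18, 4.17 and 7.63 against 0.989, 1.14 and 2.29 CPM (1.78, SE 0.26). Oca2, known from melanosomes of pigment cells, was at 1.40, 1.63, 3.67 and 5.95 against 0.437, 0.538 and 0.902 CPM (2.38, SE 0.31). Slc24a5, another pigment cell gene, was at 2.57, 2.23, 3.41 and 4.64 against 0.398, 0.881 and 1.04 CPM (1.93, SE 0.22). The paraoxonase Pon3 (1.58, SE 0.19) kept nearly the same ratio to Ttr in all 4 rich libraries.

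Levels per unit of Ttr were then compared among the rich libraries. For each rich library, the gene's level minus its poor mean was divided by the same for Ttr and given per 1000 CPM of Ttr. Kl had excesses of 33.7, 33.3, 33.7 and 37.0 CPM per 1000 CPM of Ttr, a span (highest over lowest) of 1.11. Abca4 gave 6.53, 6.26, 6.40 and 6.99, Aqp1 5.34, 5.20, 5.78 and 6.44, and Enpp2 526, 445, 449 and 399. Over the called genes of the transport list the median span was 1.54, and of the secreted list 1.68. The span was under 2 for 19 of 23 transport and 24 of 37 secreted genes, and the widest were 3.66 and 651. Called cilia genes had a median of 2.91, transcription factors 6.62, fibroblast genes 5.97 and border macrophage genes 9.29. In the latter list all 6 had their largest excess in saline 2, as had 10 of the 12 cilia and 7 of the 9 fibroblast genes. That library also held the largest excess for 20 of 37 secreted, 8 of 23 transport, 5 of 10 junction and 4 of 6 transcription factor genes, and for 247 of all 392 genes called higher (63.0%). Zic1, by contrast, gave 44.3, 21.6, 4.97 and 3.95. Over the 390 genes called higher for which the span was defined, its median was 3.01, with 112 under 2 and 141 over 4. The same order of level as Ttr across the 4 rich libraries held for 99 of the 392 genes (25.3%) and for 1098 of all genes tested (5.64%). Spans are descriptions over 4 libraries, and low counts widen them.

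**Figure D4:**
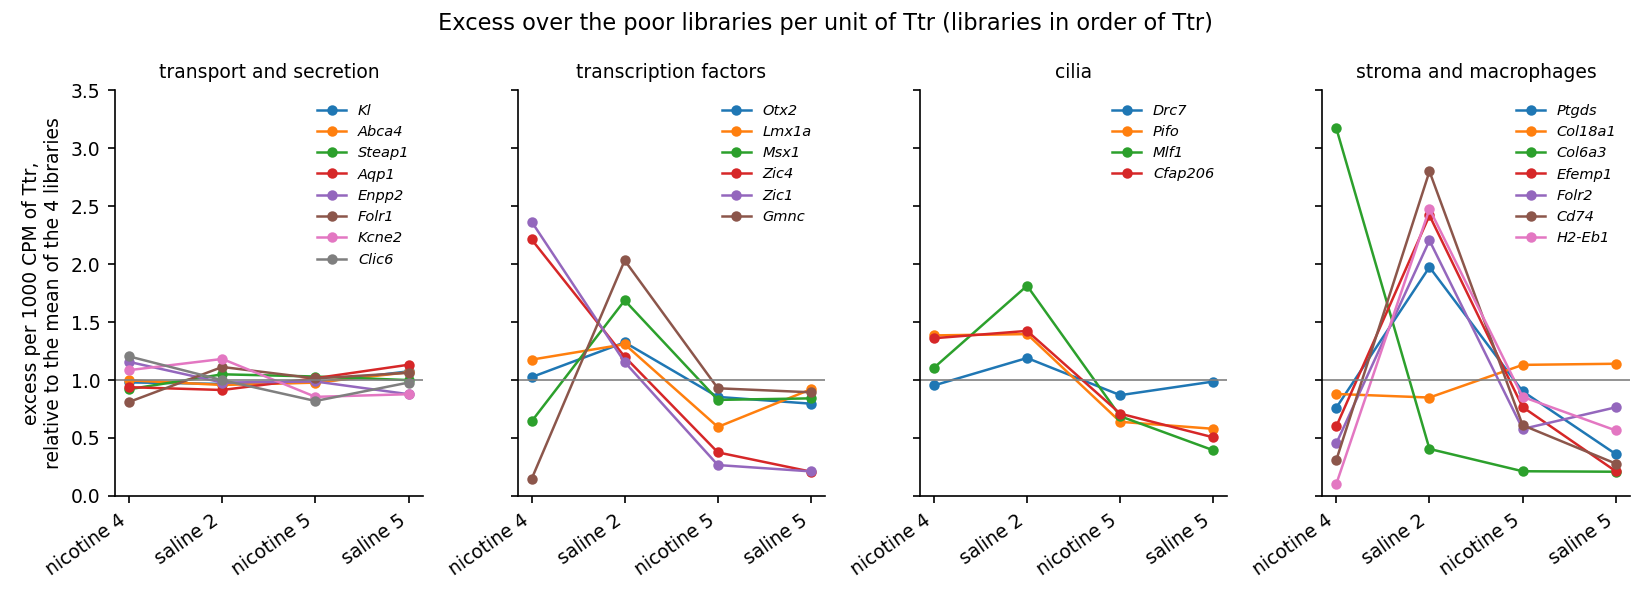
Excess over the poor mean per 1000 CPM of Ttr in each rich library, divided by its mean over the 4, for genes of 4 kinds, with libraries in the order of their Ttr. The transport and secretion genes shown, picked from their lists, stay near 1, and other members of these lists spread more widely. Zic1, Zic4 and Col6a3 peak in nicotine 4 and Cd74, H2-Eb1, Folr2, Ptgds and Gmnc in saline 2.

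Genes high in single rich libraries were of different kinds, and Prdm12, Isl1 and Tnnt1 were picked with their values known. Zic1, a zinc finger factor of dorsal midline, septal and thalamic tissue, stood at 56.7, 35.4, 20.1 and 23.8 against 5.26, 8.81 and 20.8 CPM (1.82, SE 0.28), and Zic4 at 12.6, 8.65, 5.87 and 5.70 against 1.58, 2.63 and 3.45 CPM (1.70, SE 0.22). Prdm12 was at 3.02 CPM in nicotine 4 and at 0.199 to 0.503 CPM in the other rich libraries. Isl1, a factor of striatal, cholinergic and sensory neurons, had 56 counts in nicotine 4, 7 to 16 counts in the other rich and 0 to 6 counts in the poor libraries. Drd2, a dopamine receptor of the striatum, was at 5.33, 1.88, 2.83 and 2.40 against 2.50, 2.97 and 3.29 CPM and was not called (0.05, SE 0.20), nor was Drd1 (-0.14, SE 0.20). In saline 2, Tnnt1 was at 8.00 CPM, where the other 11 libraries held 0.706 to 1.63 CPM, and Tcf7l2, a thalamic factor, was at 20.6 CPM against 8.56 to 16.1 CPM elsewhere. Neither was called (1.15, SE 0.48, and 0.25, SE 0.20). Ppp1r1b (DARPP-32), usually taken as a striatal marker, was higher in all 4 rich libraries: 63.0, 71.4, 59.2 and 70.8 against 38.7, 44.6 and 48.2 CPM (0.57, SE 0.06). Against 2.01% called higher over all genes tested, lists of thalamus and habenula (2 of 24 higher, median 0.28), striatum and septum (2 of 17, 0.05), subiculum and cortex (1 of 20, -0.001) and neurogenesis (1 of 16, 0.07) held 1 or 2 calls each. Those of the first were Zic1 and Patj, those of the second Zic1 and Ppp1r1b, and those of the others Foxp2 (0.75, SE 0.15) and Eomes (2.43, SE 0.32). Without saline 2 and nicotine 4, Zic1, Patj and Foxp2 lost their call, Ppp1r1b and Eomes were still called, and Chrnb4, a nicotinic receptor subunit of the habenula, was called. Without both libraries the medians of the striatal and subicular lists became -0.02 and 0.14. Foxp2 was not called without saline 2, and the thalamic list held 1 call in 8 of the 12 fits that left out a single library, all except those without nicotine 2, nicotine 4, nicotine 5 or saline 5.

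**Figure D5:**
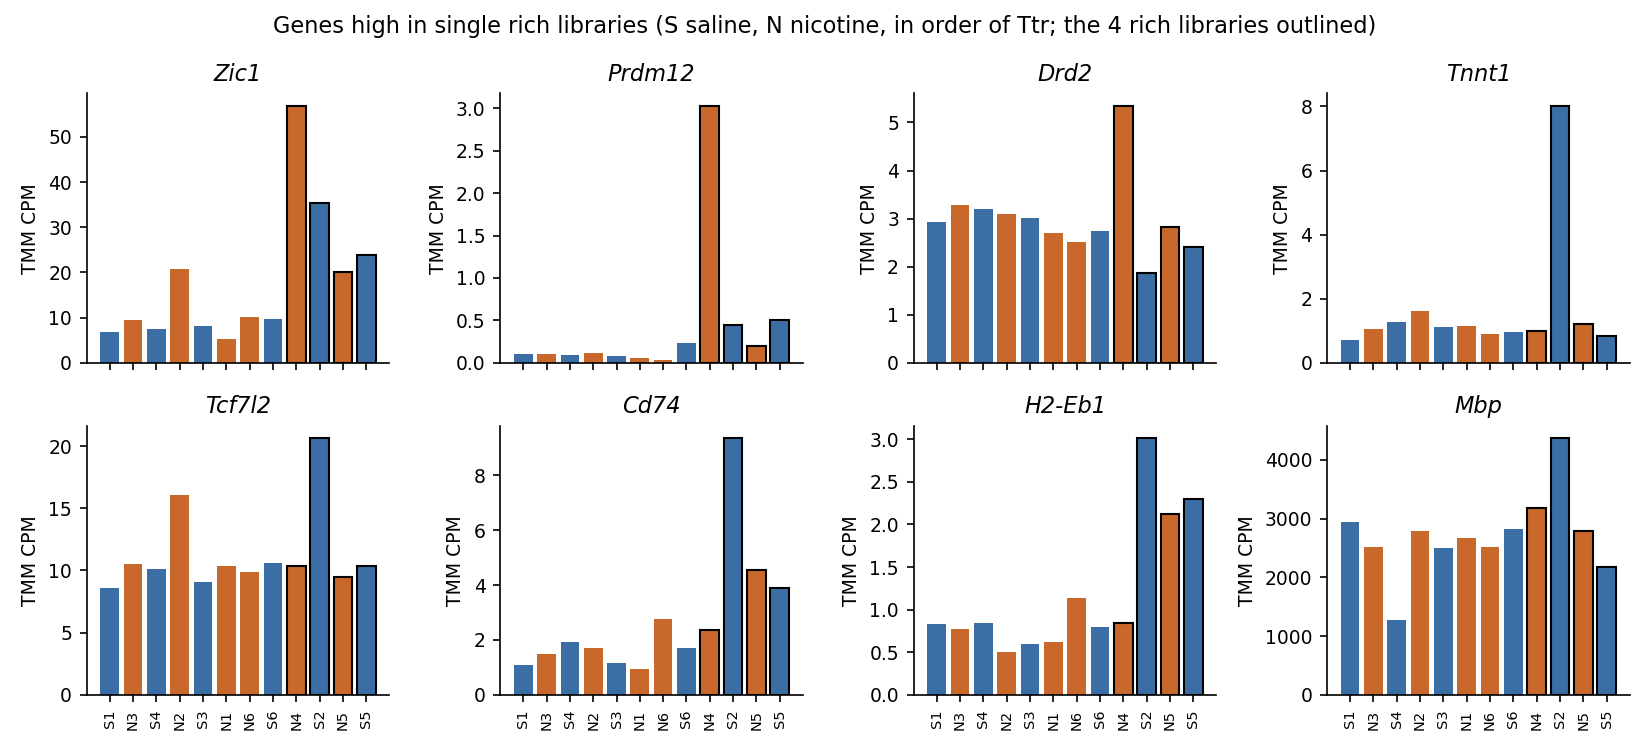
TMM-scaled CPM of 8 genes in the 12 hippocampal libraries (S saline in blue, N nicotine in orange), ordered by Ttr, with the 4 rich libraries outlined. Zic1, Prdm12 and Drd2 are highest in nicotine 4, and Tnnt1, Tcf7l2, Cd74, H2-Eb1 and Mbp in saline 2.

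Genes called lower were few and small in effect. Cc2d2b stood at 0.608, 0.334, 0.695 and 0.894 against 0.952, 1.21 and 1.55 CPM (-0.92, SE 0.23, edgeR adjusted p = 0.0486). It lost its call under 20 of 27 alternative fits. Ptpre, a receptor tyrosine phosphatase, was at 51.8, 42.2, 57.3 and 57.8 against 58.0, 65.3 and 74.8 CPM (-0.34, SE 0.09, edgeR adjusted p = 0.0499). Its call was lost under 18 of the 27. Cc2d2b and Ptpre had ranges that did not overlap, whereas those of Chrd (-0.35, SE 0.08), Fam214a (-0.32, SE 0.07) and the carbonic anhydrase Car4 (-0.28, SE 0.07) did.

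Igf2, which choroid plexus is known to express strongly, was listed at 0 counts in all 12 hippocampal and all 8 prefrontal libraries. In GENCODE vM21, 3596 of its 5723 exon bases (62.8%) are shared with Gm49394 on the same strand (chromosome 7, 142650766 to 142666816 for Igf2). Gm49394 held 0 to 6 counts per library. The neighbouring gene Ins2 had 18, 14, 29 and 73 counts in the rich and 0 to 4 counts in the poor libraries. No level of Igf2 can be given from these counts.

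Whether the class difference depended on treatment was asked with an interaction term, which the rule did not use. No gene passed (0%; smallest adjusted p 0.910 in edgeR, 1008 genes at an unadjusted p under 0.05). For Kcne2 the interaction was -0.49 (SE 0.93) on the log2 scale and for Kl -0.27 (SE 0.42), and these SEs are wide because each treatment had 2 rich libraries. With class in the fit, nicotine against saline gave 0 genes (0%; smallest adjusted p 0.469 in edgeR, 1861 at an unadjusted p under 0.05), and DESeq2 called 25. The lowest unadjusted p values belonged to Rasl10a (nicotine minus saline -0.42, SE 0.08), Plk5 (-0.73, SE 0.13) and Pcdh11x (0.43, SE 0.08). None of the 13 choroid markers passed in either test.

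Within the 8 poor libraries, Ttr still varied 14.6-fold, and the slope of each gene on log2 Ttr was tested there, apart from the threshold. Of 18805 genes tested, 1 passed (0.00532%), Mfrp, at a slope of 1.09 log2 units per doubling of Ttr (SE 0.13, edgeR adjusted p = 0.0436). Kcnj13 had a slope of 1.03 (SE 0.13, edgeR adjusted p = 0.0521) and Tmem72 of 0.92 (SE 0.16, edgeR adjusted p = 0.514). Positive slopes made up 47.2% of all genes, and positive slopes at an unadjusted p under 0.05 made up 0.707%. In the transport list 29 of 40 slopes were positive and 8 reached that unadjusted level, and in the secreted list 37 of 46 were positive and 9 reached it. Cilia genes showed the reverse, with 9 of 61 positive and 0 at that level. Without saline 6 no gene passed and the slopes of single genes moved differently. Mfrp then had a slope of 0.63 (SE 0.25, edgeR unadjusted p = 0.0285) and an adjusted p of 1. Kcnj13 had 1.07 (SE 0.27, edgeR adjusted p = 0.837), Tmem72 0.93 (SE 0.32) and Slc4a5 0.67 (SE 0.28), while Enpp2 had 0.01 (SE 0.13) and Folr1 -0.40 (SE 0.30). Of the 13 epithelial markers, 13 had positive slopes over the 8 poor libraries (median 0.40) and 7 without saline 6, and 11 of the 13 slopes were smaller without it.

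Over all 12 libraries, the genes whose log2 level was most like that of Ttr were Mfrp (Pearson r 0.991), Tmem72 (0.989), Slc4a5 (0.988), Kcnj13 (0.987) and Aqp1 (0.986). These values describe 12 libraries in 2 separate classes and carry no test. Of these, 3 were also looked up in prefrontal cortex, where Tmem72 ranged from 0.0478 to 0.419 CPM, Slc4a5 from 0.0257 to 0.351 CPM and Kcnj13 from 0.434 to 1.21 CPM.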

How the data were processed

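Per the labels' protocols, TRIzol-extracted RNA was selected for poly(A) and made into libraries (Universal Plus mRNA-Seq, NuQuant). For each tissue the authors deposited 1 table of unnormalized counts of reads per gene; fastp, STAR, featureCounts and DESeq2 and build mm10 are named without versions, per the submitters' processing notes. Which annotation and strand option were used for counting is not stated there. Symbols came from a reference table of gene names (51884 of 57180 identifiers matched, the rest holding 1.14% of counts), coordinates and exons from GENCODE vM21 and promoters from RefSeq; all 12 hippocampal columns were used. Genes passed filterByExpr on the 2 classes. edgeR 4.0.16 (R 4.3.3; TMM factors, treatment and class as terms, Benjamini-Hochberg, threshold 0.05) gave differences, SEs and calls. Among the fits run beside it were DESeq2 1.42.0, limma-voom (limma 3.58.1), other factors, filters and thresholds, and fits without each library. Counting and fitting steps were tested on simulated data. Total counts of 51969343 to 68196280 per library gave a median SE of 0.11 (log2). No 2 libraries were alike within sampling noise, and the labels call them biological replicates without naming animals, so p-values measure the spread between samples.

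The classes, the markers and the 28 gene lists were chosen with earlier results of these data known, and Ttr was left out of every count. Genes were named by a rule: the 12 largest differences each way (at least 1 CPM in the higher class, no overlap of the classes), up to 4 members of each list with the smallest p, a set of choroid, stromal and neuronal markers, the 3 smallest p each way in the other fits, and the 5 most like Ttr. Others fell outside this rule, among them F5, Ace, Slc12a2, Gmnc, Prdm12, Isl1 and Tnnt1. These others were chosen with their values known, which the text states only for some. Same-numbered libraries were checked for pairing (correlation of deviations -0.24 to 0.63, above 0.1 in 3 of 6) and share only a number.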

Additional observations from a re-analysis of the deposited data

Results flagged for a closer look

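The 31 genes searched were markers and genes named for the largest class differences or the highest likeness to Ttr. In the 2 classes they gave 60 groups of 4 or 8 libraries. A highest or lowest library far from the rest was found 17 times. Chance marks about 1 in 20 such groups, a rate that does not hold for genes chosen for following Ttr. In the poor class saline 6 stood above the other 7 for 13 epithelial genes: Tmem72 (1.56 CPM), Kcne2 (1.58), Mfrp (2.60), Slc4a5 (1.91), Slc16a8 (0.313), 4933429O19Rik (0.184), Aqp1 (1.68), Cldn2 (1.55), Enpp2 (318), Kl (33.8), Folr1 (2.30), Clic6 (11.4) and Otx2 (2.93). The next poor library held 0.715 CPM of Tmem72, 0.748 of Mfrp and 205 of Enpp2. These genes share 1 library, so they are not 13 separate events, and that library also had the most Ttr of its class.

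In the rich class, Cdh3 (P-cadherin) was highest in saline 5 (3.41 CPM, the next 1.42) and Tcf7l2 in saline 2 (20.6 CPM, the next 10.4). In the poor class Tcf7l2 was highest in nicotine 2 (16.1 CPM), and Mbp was lowest in saline 4 (1269 CPM, the next 2501).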

How the results depend on the processing

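The 392 higher and 5 lower genes became 601 and 51 with DESeq2, 223 and 0 when tested against a 1.2-fold difference, 774 and 93 with no filter on low counts, 43 and 0 at a Ttr threshold of 2000 CPM (2 rich libraries), and 75 and 1 with only nicotine libraries. The count of lower genes alone moved to 10 with limma-voom, 3 with RLE and with upper-quartile factors, 2 at a mean of at least 1 CPM, 77 with a replicate block (271 higher, 106 shared with the 392), 0 on continuous log2 Ttr, 21 with only saline libraries, and 1 without saline 2 and nicotine 4, an alternative chosen after seeing the data. Leaving out each library gave 289 to 515 higher and 0 to 223 lower genes, the 223 without saline 5. The interaction gave 0 to 2 genes over these fits, the 2 without saline 5. Nicotine with class in the fit gave 25 genes with DESeq2, 0 with the replicate block, and 0 to 73 when single libraries were left out, 73 without saline 5 and 2 without nicotine 5. The gradient in the poor libraries gave 4 genes with DESeq2, 0 at a mean of at least 1 CPM and 0 to 0 without each poor library. The Ttr difference between treatments, -0.268, is the same by arithmetic when same-numbered libraries are paired, so pairing is no check of it.

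The genes named by the rule and some picked by hand were followed singly through the alternatives. Others described above, such as F5, Ace, Slc12a2 and Gmnc, were not. Of 99 followed genes that were called, Kl, Igfbp2 and Oca2 kept their call under all 27 alternatives. The replicate block kept 46 and the 2000 CPM threshold 10, where Klk6 turned to -0.27 from 1.40. DESeq2 kept 97 of 97 with a value and limma-voom 96 of 99. The cause of these changes was not tested. Genes below about 1 CPM rest on few reads: 55 of the 392 had a rich mean under 1 CPM. Over all genes, the median half-width of an unadjusted 95% interval was 0.24 log2 units, so smaller differences were mostly not detectable. Calls needed an adjusted p, so larger differences could also go uncalled, such as that of Foxj1 (0.79). Of 2981 genes at an edgeR unadjusted p under 0.05, 397 were called.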

Other observations

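Some genes called higher and outside the lists are given here as values, picked after their values were seen. Sema3b, a secreted semaphorin, stood at 5.27, 7.76, 8.37 and 13.7 CPM in nicotine 4, saline 2, nicotine 5 and saline 5, in the order of their Ttr, against 1.51 to 2.73 CPM in the poor libraries (log2 difference 2.26, SE 0.21). Bmp6, a bone morphogenetic protein, ran from 11.0 CPM in nicotine 4 to 16.7 CPM in saline 5 against 3.76 to 8.06 CPM (1.29, SE 0.15). Both rise with Ttr and do not overlap between classes. A2m, the protease inhibitor alpha-2-macroglobulin, had 8.12, 9.38, 9.25 and 11.4 against 2.78 to 4.70 CPM (1.38, SE 0.14).

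Other genes were raised without following Ttr. Crhr2, a receptor for corticotropin-releasing hormone family peptides, was at 3.92, 2.92, 4.00 and 5.17 against 1.19 to 1.99 CPM (1.40, SE 0.16). Cxcl5, a chemokine, was highest in nicotine 4, at 1.35, 1.10, 0.629 and 0.769 against 0.228 to 0.442 CPM (1.44, SE 0.25). Ucp2, a mitochondrial carrier, was nearly level across the rich class, at 27.7, 29.9, 26.6 and 33.4 against 13.6 to 23.0 CPM (0.78, SE 0.11). None of these 3 genes overlapped between classes.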
